A study of Mus musculus with 9 samples.

Results

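The genes described here are 10 markers that set infiltrating monocytes and the macrophages of vessel walls and tissue borders apart from microglia: Lyz2, Wfdc17, Ccr2, Plac8, Mrc1, Cd163, Lyve1, F13a1, Pf4 and Ms4a7. They were chosen by symbol, and 10 of 10 were listed among the 16367 genes of the table of sorted cells and 8 among the 17035 genes of the table of cultures, where Ccr2 and Cd163 were not listed. Expression was measured by RNA sequencing in 9 libraries labelled as Müller glia, glial cells that span the thickness of the mouse retina. Of the sorted libraries, 3 came from wild-type sham mice, which received a corneal incision, and 3 from wild-type mice with ocular hypertension (OHT), in which 1.2 µL of silicone oil was injected into both anterior chambers. Each sorted library pooled 4 retinas, whose cells were captured on magnetic beads with an antibody against the glutamate transporter GLAST. The other 3 libraries were untreated primary cultures of wild-type retinal cells from C57BL/6J pups at postnatal days 8 to 10. For the sorted mice, no age and no time after injection is given in the labels. GLAST is carried by astrocytes as well as by Müller glia.

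Microglia settle in the retina during development and renew themselves there, while monocytes are made in the bone marrow and enter from blood when the tissue is injured. CCR2 is the receptor that lets classical monocytes leave the marrow and follow the chemokine CCL2. Border-associated macrophages sit around vessels and in the coverings of neural tissue and carry scavenger receptors such as MRC1 (CD206), CD163 and LYVE1. Several of these genes are not restricted to 1 cell type: Lyz2 is a gene of monocytes, macrophages and neutrophils that microglia can also express, Pf4 and F13a1 are also made by platelets and their precursors, and Lyve1 marks lymphatic endothelium.

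Recovered depth was 37822145 to 44472124 reads in the sham libraries and 47135569 to 53592052 reads in the OHT libraries. Levels below are normalised read counts, that is the deposited counts scaled by 1 factor per library, or ppm, parts in 1000000 of a library's summed value. A read stood for 1.38 normalised counts in OHT replicate 1 and for 0.80 to 1.03 in the other sorted libraries, so the scales can order libraries differently. RNA of macrophage-type cells was abundant in the sorted fraction: 14 genes of the macrophage lineage (such as Csf1r, Cd68 and C1qa) summed to 28391 to 60490 ppm, against 1951 to 9058 ppm for 13 Müller glia genes. Sham replicate 3 stood apart from the other sham libraries. A list of 12 genes of activated microglia summed to 14215 ppm in it, against 6251 and 5014 ppm in sham replicates 1 and 2 and 17599 to 23002 ppm in OHT, and 5 erythrocyte genes summed to 602 ppm, the highest of the 6. OHT replicate 3 had 20.05 ppm of Spi1, which encodes the macrophage factor PU.1, against 252 to 434 ppm in the other 5. Rod genes summed to 2916 ppm in sham replicate 1, 27393 and 22164 ppm in the other sham libraries and 1005 to 3685 ppm in OHT. Mural cell and fibroblast genes, which belong to vessel walls, summed to 221, 701 and 741 ppm in sham and 78.8, 32.1 and 81.1 ppm in OHT. Of these, 5 of 13 tested were lower in every OHT library, beside 9.18% of all genes tested. Their median log2 difference was -2.75, beside -0.12 over all genes tested. The part of these genes in the values of the border macrophage markers was not tested.

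Lyz2, Ms4a7 and Wfdc17 were the markers whose levels lay higher in every OHT library than in any sham library, as the plot of levels by library shows. Lyz2, which encodes the secreted bacteria-degrading enzyme lysozyme M, had 38967, 47869 and 320428 normalised counts in sham replicates 1 to 3 and 958764, 639542 and 447696 in OHT. Sham replicate 3 was 7.38 times the mean of sham replicates 1 and 2 and lay closer to the lowest OHT library than to them. As a share of the library, Lyz2 was at 3248 ± 3710 ppm in sham and at 13640 ± 1549 ppm in OHT (mean ± SD, n = 3). Ms4a7, a membrane protein of the tetraspan MS4A family found on macrophages, had 4891, 4595 and 22079 normalised counts in sham and 96975, 38427 and 35070 in OHT. Wfdc17, a small secreted protein of myeloid cells, had 1208, 428 and 3752 in sham and 21694, 6027 and 18786 in OHT. For both genes sham replicate 3 was again the highest sham library, at 4.66 and 4.59 times the mean of the other sham libraries. In bulk RNA, more cells of a type and more RNA per cell cannot be told apart.

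**Figure D1:**
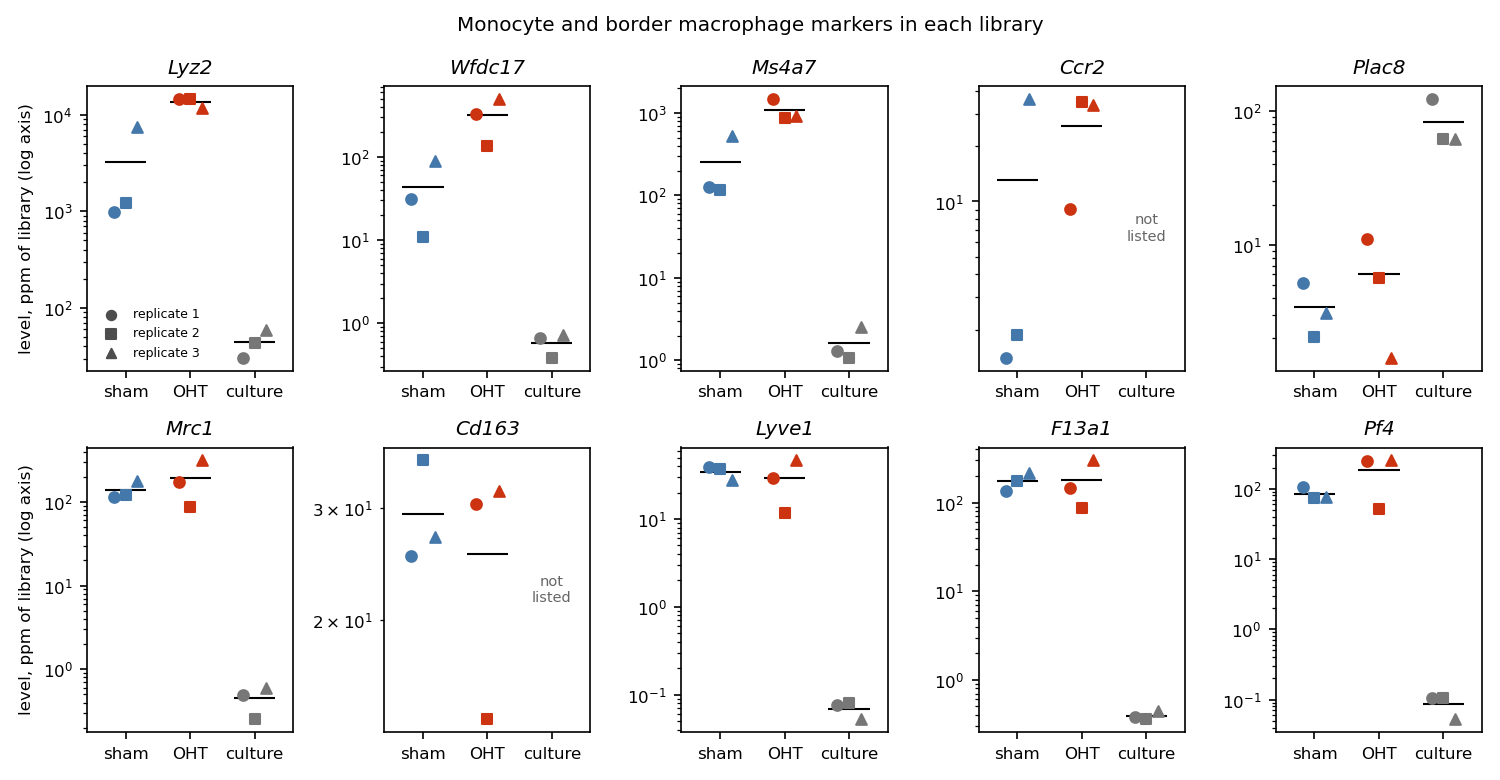
Level of each marker in ppm of the library's total (log axis, scaled for each gene) in the sham, OHT and primary culture libraries. Each point is 1 library, its shape gives the replicate number, and black lines are group means. Lyz2, Wfdc17 and Ms4a7 lie higher in each OHT library than in any sham library, and Plac8 is the marker whose cultures (61.6 to 124 ppm) lie above the sorted libraries.

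The fitted differences of these markers were given by limma on log2(value + 1) over 14403 genes. The log2 difference of OHT minus sham was 2.95 (SE 0.72) for Lyz2, 2.68 (SE 0.60) for Ms4a7 and 3.43 (SE 0.71) for Wfdc17. The limma adjusted p was 0.332 for each, so none of them passed the threshold of 0.05. No gene in the table passed it (0 of 14403, or 0%), while 1680 genes (11.7%) had an unadjusted p under 0.05, 773 of them higher in OHT (5.37%). Of the markers, 4 of 10 had such a p, Ccr2 besides these 3, and each was higher. Every OHT library lay above every sham library in 9.26% of all genes tested and in 3 of the 10 markers. Every OHT library lay below in 9.18% of all genes and in 0 of the markers, so that either held in 18.4% of all genes. The list was proposed with results of this contrast known, Wfdc17 among the genes of smallest p, so that these values describe the markers and support nothing further. The calls depended on sham replicate 3 and on the method. Without that library the limma adjusted p was 0.0109 for Lyz2, 0.0175 for Ms4a7 and 0.0184 for Wfdc17. They were 3 of 17 genes called (0.119% of 14285). DESeq2 on recovered reads with all 6 libraries also called these 3 (adjusted p 0.0329, 0.0121 and 0.00127), among 54 higher genes (0.375%) and 250 in either direction (1.74%). With the replicate number as a block, limma called 2 genes (0.0139%), of which Wfdc17 was 1. Without sham replicate 1 it called 12 genes (0.0834%), all lower and none of them a marker. edgeR's quasi-likelihood test called 0 genes and gave 1575 an unadjusted p under 0.05. Over the alternatives the adjusted p of each reached 0.906, without sham replicate 2.

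**Figure D2:**
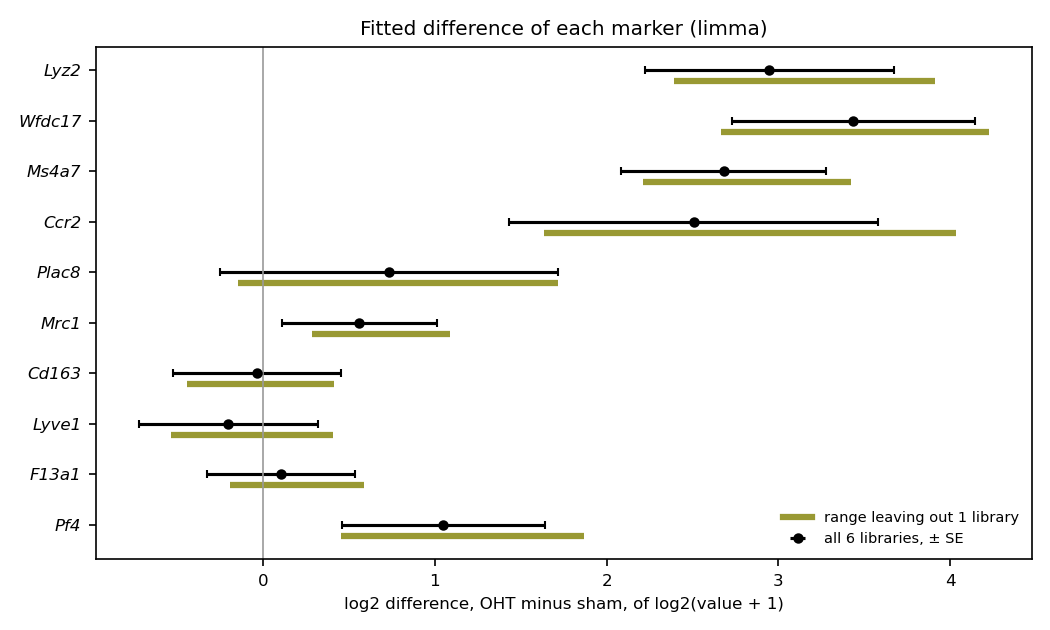
Log2 difference of OHT minus sham for each marker from the limma fit on log2(value + 1), as black points with the standard error, and the range when 1 of the 6 libraries was left out, as bars. The range stays above 0 for Lyz2, Wfdc17, Ms4a7, Ccr2, Mrc1 and Pf4 and spans 0 for Plac8, Cd163, Lyve1 and F13a1.

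The promoters of the 3 markers that separated the groups are shown beside those of Pf4 and Mrc1 from the border set, to let the sequences be compared. Each is the 250 bases before the start of the RefSeq gene in build GRCm38.p6, which is older than the mm39 named in the submitters' processing notes. The genes lie on chromosomes 10, 19, 11, 5 and 2, in the order shown, and the decimals in the labels carry no meaning. Capitals mark matches, on either strand, to the PU.1 motif AGGAAGT and the C/EBP motif TTGCNNAA, which were chosen after the data were seen. PU.1 and C/EBP factors direct the development of monocytes and macrophages.
Lyz2, chr10.0:117282273-117282522, minus strand: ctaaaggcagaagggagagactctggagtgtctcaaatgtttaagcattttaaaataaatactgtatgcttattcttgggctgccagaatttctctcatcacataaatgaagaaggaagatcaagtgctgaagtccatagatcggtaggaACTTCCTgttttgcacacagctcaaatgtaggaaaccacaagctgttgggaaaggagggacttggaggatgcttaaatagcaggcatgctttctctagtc
Ms4a7, chr19.0:11336147-11336396, minus strand: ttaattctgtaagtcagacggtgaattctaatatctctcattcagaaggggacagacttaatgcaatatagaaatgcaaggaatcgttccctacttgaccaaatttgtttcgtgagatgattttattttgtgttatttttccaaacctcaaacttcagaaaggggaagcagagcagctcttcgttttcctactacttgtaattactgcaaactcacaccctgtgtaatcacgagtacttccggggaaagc
Wfdc17, chr11.0:83703806-83704055, plus strand: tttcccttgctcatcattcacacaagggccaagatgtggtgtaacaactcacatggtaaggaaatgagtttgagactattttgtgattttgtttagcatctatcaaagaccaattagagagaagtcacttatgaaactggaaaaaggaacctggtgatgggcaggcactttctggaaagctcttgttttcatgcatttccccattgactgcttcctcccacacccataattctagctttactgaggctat
Pf4, chr5.0:90772185-90772434, plus strand: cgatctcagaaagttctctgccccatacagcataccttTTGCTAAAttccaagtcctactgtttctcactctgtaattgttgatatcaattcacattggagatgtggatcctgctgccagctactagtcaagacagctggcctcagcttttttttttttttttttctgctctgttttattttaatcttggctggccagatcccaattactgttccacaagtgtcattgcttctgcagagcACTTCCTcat
Mrc1, chr2.0:14229164-14229413, plus strand: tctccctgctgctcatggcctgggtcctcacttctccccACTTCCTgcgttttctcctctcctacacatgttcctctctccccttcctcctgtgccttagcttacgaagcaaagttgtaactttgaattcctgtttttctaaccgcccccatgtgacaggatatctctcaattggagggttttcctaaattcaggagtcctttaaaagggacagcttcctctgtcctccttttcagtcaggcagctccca
Lyz2, Mrc1 and Pf4 held the PU.1 letters as ACTTCCT, on the opposite strand, at 100 to 94, 211 to 205 and 10 to 4 bases before the start. Pf4 also held a C/EBP match, TTGCTAAA, at 212 to 205 bases. Neither set was marked off by these letters, since Ms4a7 and Wfdc17 held no match in this window. In the border set, the first listed start of F13a1 and the window of Cd163, which are not shown, also held no match. The table held 12 windows for 9 of the markers, without Lyve1, and 4 of them had a PU.1 match, the fourth at the second listed start of F13a1. A C/EBP match was in 2 of the 12 windows, that of Pf4 and the second listed of Plac8. Of all 32851 promoter windows of this length, 7.69% held the PU.1 letters and 9.56% the C/EBP letters. A further motif, TGCTGAC, bound by MAF factors, was in 0 of the 12 windows and in 3.81% of all windows.

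Reads of Lyz2 could be confused with those of its neighbour Lyz1, a close copy expressed mainly in gut. No window of 150 bases, the read length, was shared between the longest Lyz2 transcript and a transcript of another gene in GENCODE M21. Lyz1 made up 0.0655% to 4.03% of the summed Lyz1 and Lyz2 values in the 6 sorted libraries. How ambiguous reads were counted is not stated in the labels. Of the genes that define neutrophils, which also carry lysozyme M, S100a8 was at 0 to 0.0675 ppm in sham and 0.189 to 0.806 ppm in OHT, and S100a9, Retnlg, Ly6g and Camp were not listed in the table of sorted cells. The 6 listed neutrophil genes summed to 162 to 269 ppm in sham and 170 to 204 ppm in OHT, of which Csf3r alone made up 159 to 269 and 152 to 199 ppm. Of the 4 neutrophil genes tested, 2 were higher in every OHT library with an unadjusted limma p under 0.05, S100a8 and Mmp8, and the median log2 difference was 1.92. Mmp8, a collagenase stored by neutrophils, was at 0, 0.211 and 1.60 ppm in sham and 17.4, 3.69 and 4.58 ppm in OHT (adjusted p 0.332). Of the macrophage lineage list, 9 of 14 genes were higher in every OHT library, 12 had a positive difference and 0 passed the adjusted threshold. Of the activated microglia list, 9 of 12 were higher in every OHT library and 0 passed it. Over all genes tested, 9.26% were higher in every OHT library. The part of neutrophil, lineage and activated microglia genes in the differences of Lyz2, Ms4a7 and Wfdc17 was not tested.

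To set the markers against the microglia in the same library, values were divided by the summed values of 13 homeostatic microglia genes, such as P2ry12 and Tmem119. That sum was 24800, 18130 and 10566 ppm in sham and 16126, 16602 and 15739 ppm in OHT. Of the 13 genes, 0 separated the groups in either direction, beside 18.4% of all genes tested. Lyz2 had 40.2, 67.1 and 713 reads per 1000 reads of these genes in sham and 904, 873 and 753 in OHT. Ms4a7 had 5.05, 6.44 and 49.1 in sham and 91.4, 52.5 and 59.0 in OHT. On this scale both genes were still higher in each OHT library, with sham replicate 3 just below the lowest OHT library for each. Wfdc17 no longer separated the groups, with 8.34 in sham replicate 3 against 8.23 in OHT replicate 2. Per 1000 reads of the macrophage lineage list it did, with 0.693, 0.383 and 2.67 in sham and 5.45, 2.76 and 10.3 in OHT.

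**Figure D3:**
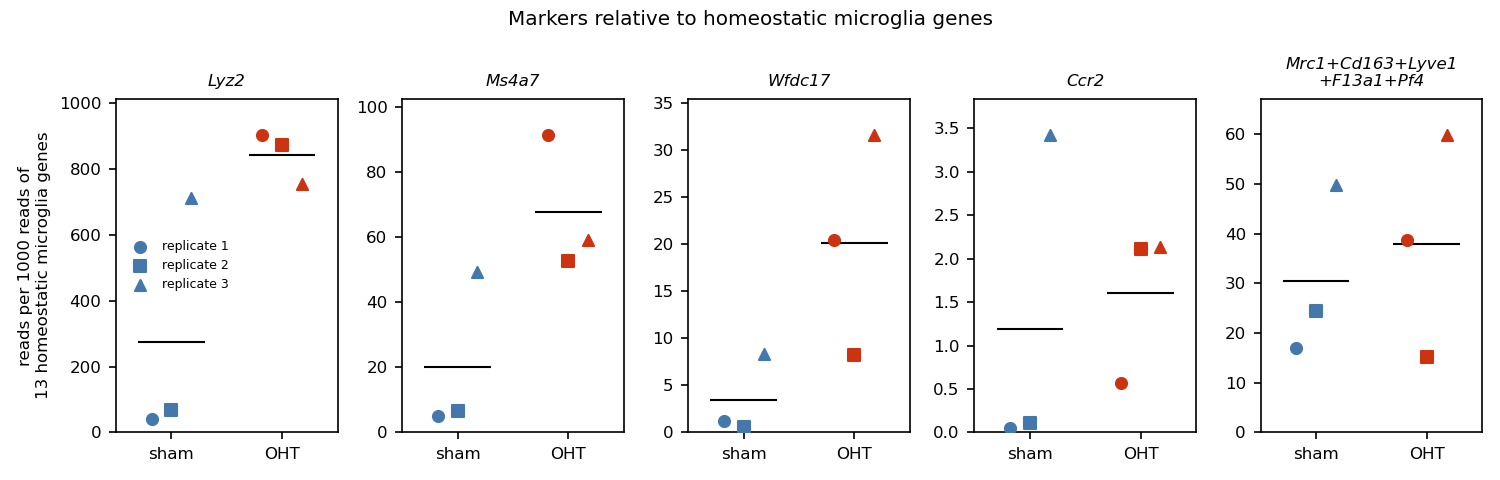
Reads of each marker per 1000 reads of 13 homeostatic microglia genes in the 6 sorted libraries (linear axes from 0), with Mrc1, Cd163, Lyve1, F13a1 and Pf4 summed in the panel on the right. Points are libraries, shapes are replicate numbers and black lines are group means. Sham replicate 3 lies near the OHT libraries for Lyz2 and Ms4a7 and above them for Ccr2, at 3.43.

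Ccr2, the chemokine receptor that defines classical monocytes, did not separate the groups. It had 54.8, 73.8 and 1541 normalised counts in sham and 598, 1543 and 1272 in OHT. Sham replicates 1 and 2 were low, and sham replicate 3 was as high as the highest OHT library, 28.2 times the lowest sham library. These values rest on 53, 80 and 1611 recovered reads in sham and 433, 1875 and 1587 in OHT. Ccr2 had a limma log2 difference of 2.51 (SE 1.07, adjusted p 0.407), and of 4.03 without sham replicate 3 (adjusted p 0.137). On recovered reads it was 0.95 in edgeR and 1.03 in DESeq2 (adjusted p 0.773 and 0.673). Relative to the homeostatic microglia genes, sham replicate 3 had the highest Ccr2 value of the 6 libraries. Of the CCR2 ligands, named after their values were seen, Ccl2 was at 365 to 499 ppm in sham and 389 to 1053 ppm in OHT, and Ccl12 at 292 to 827 and 675 to 1347 ppm.

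Levels of other monocyte genes ranged widely. Ly6c2, the surface antigen of classical monocytes, was at 0.212, 0.516 and 5.85 ppm in sham and 1.15, 0.0560 and 0.870 ppm in OHT. Chil3, a chitinase-like protein, was at 0, 1.74 and 1.15 ppm in sham and 0.0630, 0 and 1.63 ppm in OHT. Hp, which encodes haptoglobin, was at 0, 0 and 3.55 ppm in sham and 0.399, 1.72 and 0 ppm in OHT. Ly6c2 and Hp were highest in sham replicate 3, and the groups overlapped for each of these genes, which were named after their values were seen. The 13 lymphocyte genes summed to 53.0, 34.3 and 42.0 ppm in sham and 74.3, 52.9 and 57.9 ppm in OHT. Across the wider list of 28 monocyte genes, 26 were tested, 0 passed the adjusted threshold and 7 were higher in every OHT library, as were 9.26% of all genes tested. Its median log2 difference was 0.59, beside -0.12 over all genes tested. The 2 most abundant of the list were Nr4a1, a factor needed by patrolling monocytes, at 144 to 384 ppm with overlapping groups, and Ifitm3, an interferon-induced membrane protein, at 105 to 255 ppm in sham and 262 to 433 ppm in OHT. Vim and Fn1 of this list are also genes of glia and connective tissue.

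Plac8, a cysteine-rich protein of monocytes, plasmacytoid dendritic cells and some epithelia, had the lowest mean normalised count of the 10 markers over the 6 sorted libraries. It had 201, 80.2 and 131 in sham and 725, 249 and 53.7 in OHT, so that the OHT libraries lay on both sides of the sham range. Its log2 difference was 0.73 (SE 0.99, limma adjusted p 0.760) and turned to -0.15 without OHT replicate 1. Plac8 did not follow Ccr2: sham replicate 3, the highest sham library for Ccr2, was between the other sham libraries for Plac8.

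None of the border macrophage receptors separated the groups. Mrc1, the mannose receptor, had 4435, 4793 and 7563 normalised counts in sham and 11358, 3848 and 11811 in OHT. Cd163, the scavenger receptor for haemoglobin bound to haptoglobin, had 987, 1404 and 1150 in sham and 2002, 613 and 1206 in OHT. Lyve1, a receptor for hyaluronan, had 1540, 1459 and 1171 in sham and 1905, 517 and 1755 in OHT. For each of these receptors OHT replicate 2 was the lowest of the 6 libraries, and the groups overlapped. In normalised counts the other OHT libraries lay above every sham library for Mrc1. In ppm that did not hold, with OHT replicate 1 at 173 ppm and sham replicate 3 at 178 ppm. The log2 differences were 0.56 (SE 0.45), -0.03 (SE 0.49) and -0.20 (SE 0.52), with limma adjusted p of 0.607, 0.981 and 0.881. Without OHT replicate 2 the differences were 1.09 for Mrc1, 0.41 for Cd163 and 0.41 for Lyve1, with adjusted p between 0.219 and 0.611.

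Secreted products of border macrophages were also lowest in OHT replicate 2. F13a1, the A subunit of clotting factor XIII, had 5340, 6878 and 9300 normalised counts in sham and 9709, 3862 and 11340 in OHT. Pf4, the chemokine CXCL4, had 4134, 2870 and 3249 in sham and 16034, 2241 and 9524 in OHT. The groups overlapped for both genes. F13a1 differed by 0.11 on the log2 scale (SE 0.43, limma adjusted p 0.925) and Pf4 by 1.05 (SE 0.59, adjusted p 0.498). Without OHT replicate 2 that of Pf4 was 1.87 (adjusted p 0.205). Of the genes that define platelets, which also hold both products, Ppbp was at 0.270 to 0.657 ppm and Itga2b at 0.168 to 0.967 ppm. The 8 listed platelet genes summed to 7.15 to 16.0 ppm in sham and 4.77 to 8.50 ppm in OHT. The highest value of a single gene among them was 13.8 ppm. Pf4 was at 50.8 to 252 ppm. The part of platelet genes in the values of F13a1 and Pf4 was not tested. Of the lymphatic genes that could accompany Lyve1, Flt4 was at 0.315 to 2.99 ppm and Ccl21a at 0 to 0.405 ppm. All 5 lymphatic genes summed to 89.5, 218 and 130 ppm in sham and 38.7, 51.8 and 112 ppm in OHT. The highest value of a single gene among them was 169 ppm, while Lyve1 was at 11.7 to 46.5 ppm. The part of lymphatic genes in the values of Lyve1 was not tested.

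Summed, Mrc1, Cd163, Lyve1, F13a1 and Pf4 were at 421, 442 and 527 ppm in sham and at 623, 251 and 943 ppm in OHT. The sham libraries were close together, and the OHT libraries ranged on both sides of them. Per 1000 reads of the homeostatic microglia genes the sum was 17.0, 24.4 and 49.9 in sham and 38.6, 15.1 and 59.9 in OHT. Sham replicate 3, which was high in Lyz2, Ms4a7, Wfdc17 and Ccr2, was also the highest sham library in this ratio, while its microglia sum was the lowest of the 6.

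A wider list of 37 border macrophage genes held 34 tested genes. None passed the adjusted threshold, 11 were higher in every OHT library and 0 were lower in each, beside 9.26% and 9.18% of all genes tested. The median log2 difference was 0.72, beside -0.12 over all genes tested. The most abundant was Apoe, the lipid carrier, at 11264, 14842 and 65585 ppm in sham and 98894, 96718 and 15800 ppm in OHT. Its groups overlapped, with OHT replicate 3 near sham replicates 1 and 2. Next came Selenop, the selenium transport protein, at 1416 to 1520 ppm in sham and 1783 to 2884 ppm in OHT. Other members, named after their values were seen, were Ms4a6d (log2 difference 1.36, SE 0.38), Ms4a4a (1.38, SE 0.40) and Clec12a (2.57, SE 0.71), each with a limma adjusted p of 0.332. Ms4a6d and Ms4a4a belong to the same family as Ms4a7, and Clec12a is a C-type lectin receptor of myeloid cells. The lectins Cd209f and Cd209g, which mark border macrophages in mouse brain, were each at 0.870 ppm or below, and Cd209b was not listed. Igf1 of this list was also counted among the genes of activated microglia, and Apoe is also made by Müller glia and microglia.

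Across the 6 sorted libraries r was higher within 2 sets of markers than in most pairs between them. Lyz2, Ms4a7 and Wfdc17 correlated with each other at Pearson r of 0.90 to 0.98 on log2(value + 1). The 10 pairs among Mrc1, Cd163, Lyve1, F13a1 and Pf4 had r of 0.65 to 0.93, and the 15 pairs between the sets had r of -0.22 to 0.74, with a median of 0.33. After each group's mean was subtracted, r was 0.69 to 0.95 in the first set, 0.77 to 0.99 in the second and -0.16 to 0.77 between them. Wfdc17 was then as close to Mrc1 (r = 0.77) and F13a1 (r = 0.68) as to Lyz2 (r = 0.69), so that for Wfdc17 the sets were not separate on that scale. Ccr2 had r of 0.89 to Lyz2, 0.81 to Ms4a7 and 0.76 to Wfdc17. Its r to the second set was 0.44 for Mrc1, 0.26 for F13a1, 0.15 for Pf4, -0.20 for Cd163 and -0.38 for Lyve1. The highest r of Plac8 to another marker was 0.49, to Ms4a7. These values describe 6 libraries that share groups, depth and amplification.

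**Figure D4:**
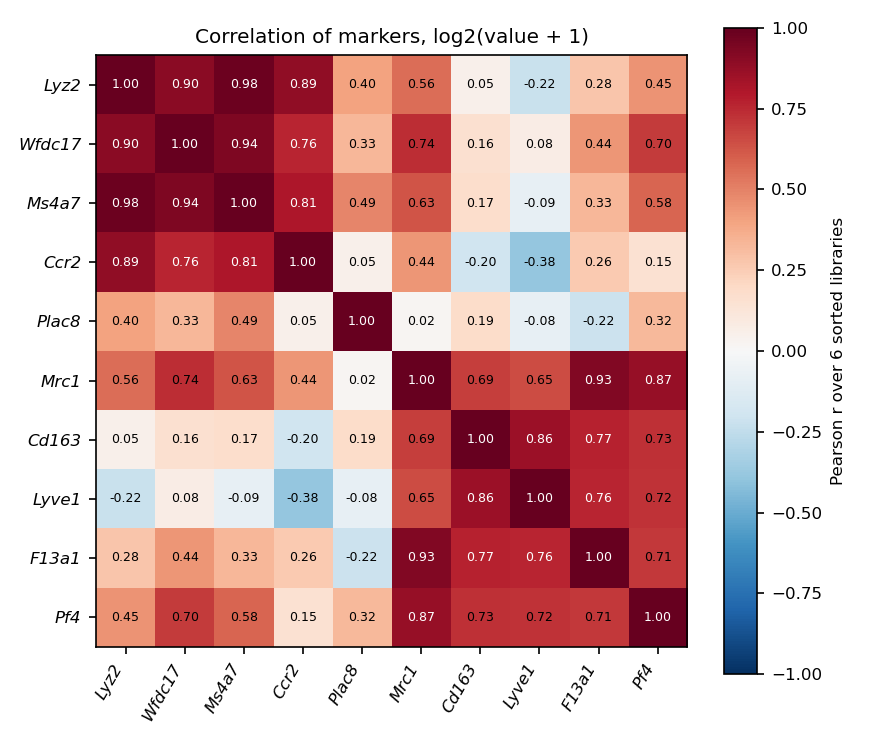
Pearson correlation of log2(value + 1) between each pair of markers over the 6 sorted libraries, printed in each cell and coloured from -1 (blue) to 1 (red). Lyz2, Wfdc17, Ms4a7 and Ccr2 form a block with r of 0.76 to 0.98, and Mrc1, Cd163, Lyve1, F13a1 and Pf4 form a block with r of 0.65 to 0.93.

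Among the other 11531 genes with a mean of at least 100, those most like Lyz2 over these 6 libraries were Adgre5, an adhesion receptor of leukocytes (r = 0.997), Sh2d1b1 (r = 0.997) and Cd5l (r = 0.995). Most like Ms4a7 were Mcub, Lgals1 and Tpd52, and most like Wfdc17 were Apobec1, Sp140 and Fabp3, with r of 0.994 to 0.995 (Tpd52 lowest). Ccr2 was most like Gdf3 (r = 0.996), and F13a1 was most like Plcxd2 (r = 0.979). These are the highest of many values of r over few libraries and are given as a description.

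Per kilobase of the longest GENCODE M21 transcript, the order of the markers in sham was Lyz2 (2468 ± 2819 ppm per kb), Ms4a7 (161 ± 146), Pf4 (145 ± 30.7), Wfdc17 (81.3 ± 75.3), F13a1 (44.7 ± 10.4), Mrc1 (25.6 ± 6.50), Lyve1 (11.99 ± 2.18), Cd163 (6.60 ± 1.26), Plac8 (2.80 ± 1.30) and Ccr2 (2.30 ± 3.49; SD, n = 3). The ranges of neighbours overlapped from Ms4a7 to F13a1 and between Plac8 and Ccr2, and did not overlap between the other neighbours. In OHT, Lyz2 was at 10365 ± 1177 ppm per kb, followed by Ms4a7 (692 ± 211), Wfdc17 (603 ± 339) and Pf4 (310 ± 194), and Ccr2 had the lowest mean at 4.52 ± 2.55. In OHT the ranges of Ms4a7 and Wfdc17 overlapped, as did those of Wfdc17 and Pf4. The range of Ccr2 in OHT overlapped those of Plac8, Cd163 and Lyve1. Fold spread between sham libraries went from 1.32 for Lyve1 to 28.2 for Ccr2 in normalised counts. Transcript GC content of the markers was 39.4% (Ccr2) to 50.0% (Pf4).

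Transcripts of the factors that act on macrophage promoters, and of related receptors, were listed for 19 genes. None passed the adjusted threshold, and 2 were higher in every OHT library, Maf and Csf2rb, a share near the 9.26% of all genes tested. Both were named after their values were seen. The median log2 difference over the 19 was 0.05.

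In the primary cultures, markers of the border set were close to absent. Mrc1 was at 0.498, 0.251 and 0.599 ppm, F13a1 at 0.377, 0.357 and 0.443 ppm, Pf4 at 0.106, 0.106 and 0.0521 ppm and Lyve1 at 0.0754, 0.0793 and 0.0521 ppm. The lowest sorted library had 87.2 ppm of Mrc1 and 11.7 ppm of Lyve1. The macrophage lineage list also summed to 32.4, 33.8 and 66.2 ppm, a level of RNA below that of any sorted library. Both tables were normalised separately, so these levels are set side by side with no test. Müller glia genes were lower in the cultures as well, with the 13 genes summed at 441 to 555 ppm, against 1951 to 9058 ppm in the sorted libraries. Rlbp1 was at 1.60 to 2.84 ppm and Aqp4 at 1.93 to 3.13 ppm, so most of that culture sum came from other genes of the list. The 14 listed mural cell and fibroblast genes summed to 16726 to 19695 ppm in the cultures.

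Lyz2 and Plac8 were the markers with clear levels in culture. Lyz2 was at 30.4, 43.0 and 58.9 ppm, close to the sum of the whole macrophage lineage list in the same libraries, whereas in the sorted libraries it had 22.4 to 293 reads per 1000 reads of that list. Plac8 was at 124, 61.6 and 62.5 ppm, against 1.42 to 11.0 ppm in the sorted libraries. Ms4a7 was at 1.31, 1.07 and 2.55 ppm and Wfdc17 at 0.664, 0.383 and 0.717 ppm. The third culture was highest in Lyz2, Ms4a7 and Wfdc17 and in the macrophage lineage sum, and the first was highest in Plac8.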

How the data were processed

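Per the submitters' processing notes, bcl2fastq 2.20, Trim Galore 0.6.6, FastQC 0.11.9, STAR 2.7.1a and mm39 were used; no counting program, annotation or normalization tool is named there. The deposited signal is 1 value per gene and library, a gene count divided by 1 factor per library and not by gene length. Dividing each sorted column by its step gave whole reads for 100% of values (tolerance 0.05 reads). The 2 tables were normalised separately, and no test was made across them; the deposited values of the cultures summed to 77306404 to 82436791.

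OHT (3 libraries) was compared with sham (3) by limma 3.58.1 (R 4.3.3; eBayes with trend) on log2(value + 1), which understates fold changes of low genes, in genes with a mean of at least 10, with Benjamini-Hochberg adjustment over 14403 genes and a threshold of 0.05. edgeR 4.0.16 and DESeq2 1.42.0 on recovered reads were alternatives. The fits were tested on simulated counts. Where a gene had no read, the limit given is 3 reads, for counting error alone. Nothing in the labels says that replicates came from separate sorts, so p-values measure the spread between these libraries. Some single genes are not reported here. Markers, lists and motifs were chosen with earlier results of these data known. The rule for names was the 10 markers, the 3 genes most like each, and the 2 most abundant genes of each list. Further genes of the lists were named outside this rule, with earlier results of these data known. Figures used Python 3.11.15 and matplotlib 3.10.9.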

Additional observations from a re-analysis of the deposited data

How the results depend on the processing

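Of the 160 log2 differences of the markers recomputed under alternatives, 142 kept their direction and their side of the threshold, 7 passed it and 11 changed sign. Leaving out 1 library gave 2.39 to 3.91 for Lyz2, 2.66 to 4.23 for Wfdc17, 2.21 to 3.42 for Ms4a7, 1.64 to 4.03 for Ccr2, -0.15 to 1.72 for Plac8, 0.28 to 1.09 for Mrc1, -0.44 to 0.41 for Cd163, -0.53 to 0.41 for Lyve1, -0.19 to 0.59 for F13a1 and 0.45 to 1.87 for Pf4. The sign changed without OHT replicate 1 for Plac8, without sham replicate 2 (0.10) or OHT replicate 2 for Cd163, without OHT replicate 2 for Lyve1, and without sham replicate 1 (-0.09), OHT replicate 1 (-0.08) or OHT replicate 3 for F13a1. It also changed with edgeR (0.022) and DESeq2 (0.11) for Cd163, with DESeq2 for Lyve1 (0.0028) and after quantile normalization for F13a1 (-0.25); the cause was not tested. DESeq2 gave 2.33, 3.11 and 2.43 for Lyz2, Wfdc17 and Ms4a7, all past the threshold. The count of called genes, 0 in limma with all libraries, was 250 with DESeq2 and ranged from 0 to 17 when 1 library was left out (12 without sham replicate 1, 17 without sham replicate 3). With the replicate block 2 genes were called, among them Wfdc17 at 3.43 (adjusted p 0.0464). Same-numbered libraries did not deviate together (Pearson r across genes 0.08, -0.02 and -0.05), and not every library correlated best with its own number. With 3 libraries in each group, these values cannot tell whether the numbers pair the samples. Other scalings moved the median of all genes from -0.12 to -0.15 (TMM) and 0.01 (quantile).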

Other observations

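In the cultures, Plac8 was not alone in being highest in the first library. Ppbp, a platelet chemokine gene, was at 78.3, 37.6 and 37.2 ppm, and S100a4, a calcium-binding protein of motile cells, at 396, 116 and 113 ppm, both also highest there. Itga2b, which marks platelets and their precursors, was at 2.68, 2.67 and 2.06 ppm. These genes were picked after their values were seen.

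Cd5l, a secreted protein of tissue macrophages, was at 0 reads in sham replicates 1 and 2, at 3.98 ppm in sham replicate 3 and at 15.6, 13.6 and 9.04 ppm in OHT. A count of 0 there allows up to 0.0793 and 0.0703 ppm. Gdf3, a growth factor of the TGF-beta family and the gene most like Ccr2, was at 0.449, 0.469 and 14.3 ppm in sham. In OHT it was at 4.43, 20.2 and 16.6 ppm. The order of the libraries differed in ppm: Ccr2 was highest in sham replicate 3 (36.2 ppm) and Gdf3 in OHT replicate 2.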
